A study of Mus musculus with 10 samples.

Results

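The transcripts described here came from 108 newly assembled loci of the mouse genome that carried the annotation terms DNA integration or virion assembly, the terms given to the integrase and capsid proteins of retroelements. They were found among the 7547 loci of the deposited table that had no Ensembl gene and whose names started with Mus_musculus_newGene, out of 29583 genes and loci in all. Of the 108 loci, 68 carried DNA integration alone, 30 carried virion assembly alone and 10 carried both. A locus is named below by its number, newGene_5478 standing for Mus_musculus_newGene_5478. The RNA came from MC3T3-E1, an osteoblast precursor line derived from the skull of newborn C57BL/6 mice, although the source label of the same libraries read bone marrow mesenchymal stem cells. The cells were grown in standard medium with β-ecdysterone, a plant and insect steroid, at 0, 100, 150 or 200 µM for 5 or 10 days, and there was 1 library for each dose and day. The 6 libraries at 100 to 200 µM are called treated and were compared with the 2 libraries at 0 µM. Libraries A-5 and B-4 were labelled untreated with no dose and no time, and were kept apart from the 0 µM libraries.

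Endogenous retroviruses are copies of former retroviral infections that are inherited with the genome, and most are broken or silenced. An intact copy carries gag, which encodes the proteins of the particle core, pol, which encodes the reverse transcriptase, RNase H and integrase, and in some families env, which encodes the surface protein. Intracisternal A-particles (IAPs) are a large and still mobile mouse family that builds particles inside the cell. In differentiated cells such copies are kept down by DNA methylation, which Dnmt1 and Uhrf1 maintain at replication, and by KRAB zinc finger proteins that recruit Trim28 and Setdb1.

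The annotation of the loci was that of retroviral Gag and Pol proteins. Each locus was filed under 1 protein domain, the first present in a fixed order. The order was Gag, dUTPase, the C-terminal integrase domain of murine leukemia virus, reverse transcriptase or RNase H, and integrase. A locus can thus hold further domains. The domain was a reverse transcriptase or RNase H domain in 25 loci and a Gag core or matrix domain in 17. It was an integrase or integrase-like zinc finger domain in 16, the C-terminal integrase domain of murine leukemia virus in 15 and a dUTPase in 5, while 30 loci had no domain. The term DNA integration stood on 78 loci in all. Beyond the terms that chose them, 93 loci carried nucleic acid binding, 87 the RNA-DNA hybrid ribonuclease, 43 an aspartic endopeptidase, 43 zinc binding and 41 RNA-directed DNA polymerase. By the name of the best protein match, 12 loci matched endogenous retrovirus group K, 18 a gag, pol or env protein with no virus named, 1 an intracisternal A-particle protein and 1 nothing, and the other 76 mostly matched uncharacterized proteins. The Swiss-Prot match named a protein for 29 loci: 12 matched the IgE-binding protein of IAPs, 16 a retrovirus-related Pol polyprotein and 1 the Env protein related to murine leukemia virus. No locus was named LINE-1 or mouse mammary tumor virus. Positions and sequences of these loci were not used here, so whether neighbouring numbers such as newGene_4750 and newGene_4751 are pieces of the same element was not tested. Copies of a family can be nearly identical, and how reads that fit several copies were counted is not given in the sources used here, so that counts of single loci are uncertain.

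The library totals ran from 27108562 to 58218009 counts, and at this depth 3 counts, the most that a count of 0 allows, came to between 0.0504 and 0.117 CPM (counts scaled to a common library total). Of the 108 loci, between 64 and 95 had at least 1 count in a library, and their counts made up 0.0883% to 0.142% of each library. The osteoblast collagens Col1a1 and Col1a2 averaged 9335 and 13938 CPM in treated cells. Of the markers of other cell types, 2 of 5 for macrophages (Ptprc and Adgre1), 1 of 3 for endothelium (Kdr), 2 of 4 for adipocytes (Adipoq and Cidec), 1 of 4 for muscle (Myod1) and 4 of 6 for pluripotent or germ cells (Pou5f1, Zfp42, Dppa3 and Ddx4) had no count in either 0 µM library. Others were present there, with means of 10.6 CPM for Cd14, 1.84 CPM for Fabp4, 1.82 CPM for Des, 1.54 CPM for Cd68 and 1.0 CPM for Nanog. The labels do not say that the libraries of different doses came from separate cultures, so p-values measured the spread between these libraries only.

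Most of the loci that could be tested were more abundant in treated cells. Of the 108 loci, 69 had enough counts for the test, and of these 46 rose by more than 1 on the log2 scale, 1 fell by as much and 22 did not pass the limits of a log2 change over 1 and an adjusted p below 0.05. Over all 16794 genes tested the same limits called 13.4% higher and 5.98% lower. Among the 2672 other newly assembled loci tested they called 29.3% higher and 4.38% lower, and among 14053 Ensembl genes 10.1% higher. The median log2 fold change of the 69 loci was 2.12. It was 2.12 also with 2 loci that had no count at 0 µM set at their lower bound, which does not address the filter. Over all 108 loci, tested with at least 1 count, the median was 1.96 (0.27 over all genes). Over the 32 loci with at least 10 counts in every library it was 1.54 (0.02 over all genes). In the main fit the median was 0.64 for the other new loci, -0.01 for Ensembl genes and 0.05 for all genes tested. The loci that rose ran from a fitted log2 fold change of 1.0 to 8.04, and the upper values rest on few or no counts at 0 µM.

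The count of 46 depended in part on which loci could be tested. In 23 of the 69 loci both 0 µM libraries lay under the filter level of 0.249 CPM, so that these passed through the treated libraries, and 19 of them were called higher. Of the other 46 loci, 27 were called higher. When every locus with at least 1 count was tested, all 108 loci entered and 48 were called higher and 1 lower, while 9.24% of 26166 genes were called higher in that fit. With no test at all, 54 of the 108 loci had all 6 treated libraries above both 0 µM libraries and 3 had all 6 below, where the same held for 17.3% and 19% of all genes with a count. Leaving out the 0 µM library of day 5 brought the count to 30 of 73 loci tested, with 11.9% of all genes called higher, and leaving out that of day 10 gave 36 of 85, with 8.63% of all genes. With the untreated libraries in place of 0 µM it was 23 of 64, where 6.73% of all genes were called higher.

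**Figure D1:**
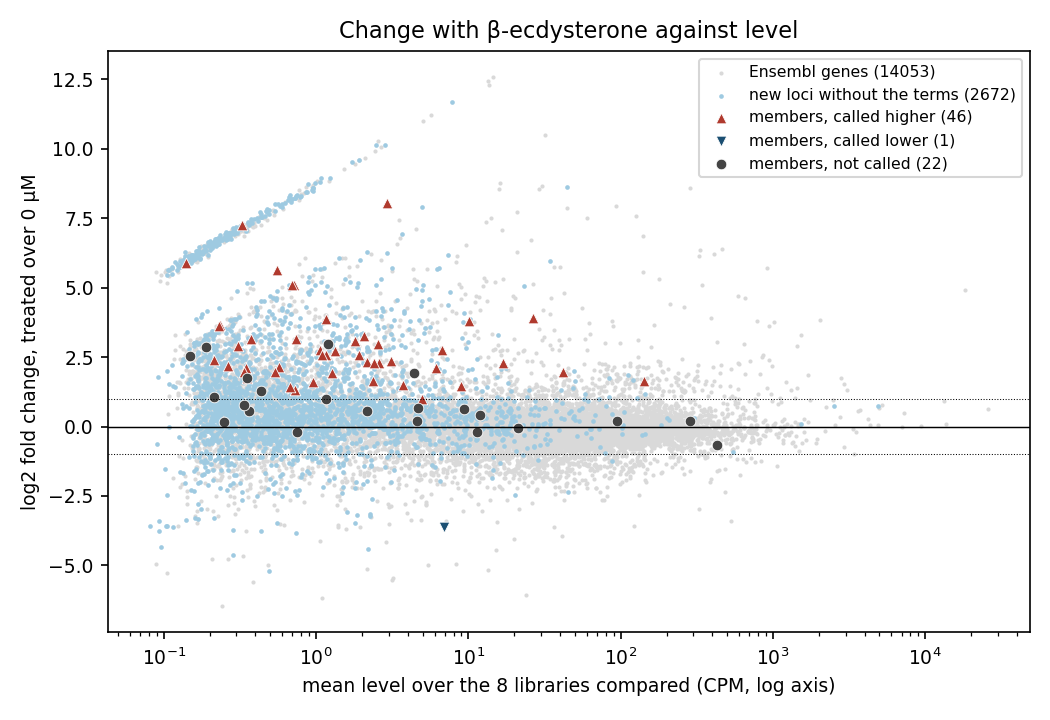
Log2 fold change of treated over 0 µM against mean level in CPM (log axis) for every gene tested, with Ensembl genes in grey, other new loci in blue and the 69 tested loci as triangles (called) or dark circles (not called). The 46 loci called higher lie above the dotted line at 1 over most of the range of levels, the 11 loci above 10 CPM have a median of 0.43, and points on the sloping upper edge had no count at 0 µM, so that their height depends on the prior count of the fit.

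The share of loci called higher was above that of the other new loci at each level. The level includes the 6 treated libraries, so it is itself raised in loci that rose. The 23 loci that passed the filter through the treated libraries, 19 of them called higher, are included. The shares are therefore a description and no independent support. Below 0.5 CPM, averaged over the 8 libraries, 11 of 19 loci (57.9%) were called higher and 27.6% of the other new loci. Between 0.5 and 2 CPM the shares were 17 of 20 (85%) and 35.1%, and between 2 and 10 CPM they were 13 of 19 (68.4%) and 28.7%. Above 10 CPM 5 of 11 loci (45.5%) were called higher against 15.7% of the other new loci. The loci were also long. The length implied by counts and FPKM, set to 1 for the median Ensembl gene, had a median of 1.3 in the 68 loci with at least 20 counts in a library and of 0.57 in 2438 other new loci.

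The summed level of the loci did not separate the groups. All 108 loci together stood at 1133 CPM on day 5 and 1145 CPM on day 10 at 0 µM, and at 1222 ± 86.1 CPM (SD, n = 6) in treated cells, with a range of 1099 to 1363. The ranges overlapped, since 150 µM on day 10 lay under both 0 µM libraries. The sum lay mostly in a few abundant loci: 4 loci held 88.7% of the sum at 0 µM and 76.2% in treated cells, of which newGene_5478 was lower in treated cells and newGene_5193 higher. Without them the other 104 loci stood at 134 and 124 CPM at 0 µM and at 291 ± 49.7 CPM in treated cells, 2.25 times as high, and the groups did not overlap. Untreated A-5 and B-4 stood at 142 and 117 CPM for the same 104 loci.

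**Figure D2:**
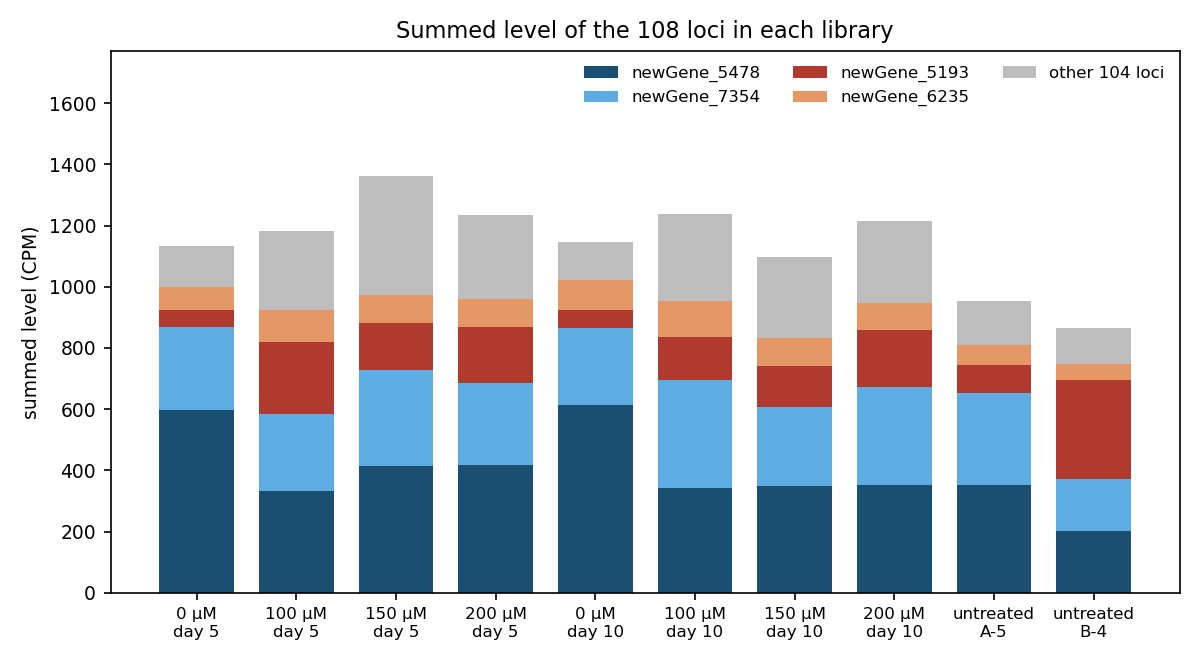
Summed level in CPM of the 108 loci in each of the 10 libraries, split into the 4 loci with the highest mean CPM and the other 104. The bars reach 1099 to 1363 CPM in treated cells and 1133 and 1145 CPM at 0 µM, with a smaller part for newGene_5478 and larger parts for newGene_5193 and the other loci in treated cells.

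newGene_5478, matched to a gag-pro-pol polyprotein and to a retrovirus-related Pol, was the most abundant locus per length, with a mean of 63.2 FPKM over the 10 libraries. It stood at 599 and 615 CPM at 0 µM and at 333, 351 and 419 CPM (lowest, median and highest) in treated cells. All 6 treated libraries lay below both 0 µM libraries, and the log2 fold change of -0.68 ± 0.11 (SE) had an adjusted p of 0.000678 but did not reach the fold limit. In untreated A-5 and B-4 it stood at 351 CPM, within the treated range, and at 201 CPM, below it, and against these libraries the log2 fold change was 0.43 with an adjusted p of 0.142.

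newGene_5193, whose Swiss-Prot match was the Env protein related to murine leukemia virus and whose domain was an integrase-like zinc finger, averaged 20.7 FPKM. It stood at 56.5 and 55.8 CPM at 0 µM and at 136, 168 and 234 CPM in treated cells. No treated library overlapped with 0 µM, and it rose by 1.65 ± 0.20 (adjusted p = 0.000145). Untreated A-5 stood at 93.7 CPM and B-4 at 325 CPM, the latter above every treated library, and the log2 fold change against the untreated libraries was -0.28 (adjusted p = 0.637).

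newGene_7354, a Gag locus that averaged 20.7 FPKM, stood at 269 and 252 CPM at 0 µM and at 251, 289 and 351 CPM in treated cells. The groups overlapped, with a log2 fold change of 0.21 ± 0.13 (adjusted p = 0.231). newGene_6235, a reverse transcriptase locus matched to endogenous retrovirus group K member 8 that averaged 7.98 FPKM, stood at 74.6 and 98.5 CPM at 0 µM and at 86.0, 91.3 and 119 CPM in treated cells, again with overlap (0.21 ± 0.15, adjusted p = 0.266). Only 11 of the 108 loci had a mean above 1 FPKM, and the loci called higher had a median of 0.243 FPKM.

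Grouped by the part of the virus they matched, loci of every kind except the dUTPases held members that rose. The counts by domain, here and in the next paragraph, stand beside 46 of 69 for all tested loci. Over all genes tested 13.4% were called higher and 5.98% lower. The 69 include 23 loci that passed the filter through the treated libraries, and the domains were not tested against each other. Among the 17 Gag loci, 14 were tested, 10 rose and none fell, with a median log2 fold change of 2.14. These 10 included newGene_769 (3.15, adjusted p = 0.00544) and newGene_2916 (2.58, adjusted p = 0.000229), named here after their values were seen. The summed level of the Gag loci was 278 and 256 CPM at 0 µM and 313 ± 39.1 CPM in treated cells, newGene_7354 included.

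Among the 25 reverse transcriptase or RNase H loci, 20 were tested, 17 rose and 1 fell, with a median of 2.82. Their summed level was 122 and 149 CPM at 0 µM and 244 ± 37.4 CPM in treated cells, with a lowest treated value of 201 CPM, so that the groups did not overlap. Among the 16 integrase loci, 13 were tested, 7 rose and none fell, with a median of 1.47, and their sum, newGene_5478 included, was 677 and 691 CPM at 0 µM and 597 ± 46.0 CPM in treated cells. Among the 15 loci with the C-terminal integrase domain of murine leukemia virus, 10 were tested and 6 rose, with a median of 2.31. The dUTPase, an enzyme that keeps uracil out of viral DNA, marked 5 loci, of which 3 were tested with log2 fold changes of 0.18 to 0.56, and none was called. The 30 loci without a domain were mostly too low, and of 9 tested 6 rose.

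**Figure D3:**
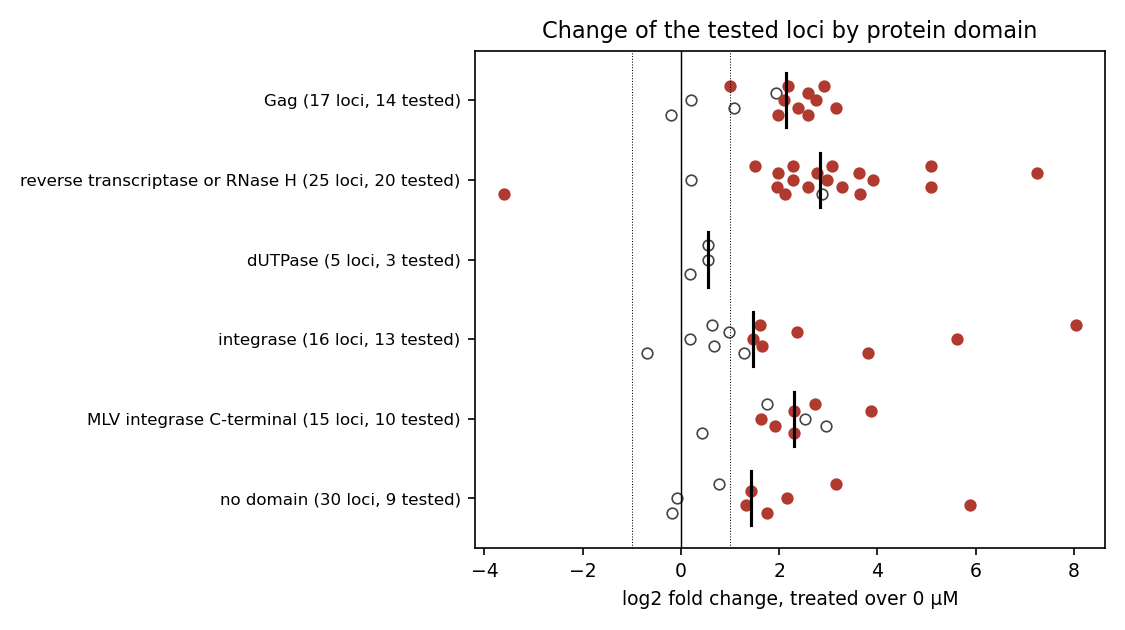
Log2 fold change of treated over 0 µM for the 69 tested loci by protein domain, the first present in a fixed order. Filled points mark called loci, open points the others and a bar the median of each group. The medians run from 0.55 for the dUTPase loci to 2.82 for the reverse transcriptase or RNase H loci, and 1 locus, newGene_3040, lies at -3.60.

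The 12 loci whose Swiss-Prot match was the IAP protein held rises as well as the fall. Of 11 tested, 8 rose and 1 fell, with a median of 2.77. The shares called higher were 66.7% of all 69 tested loci and 13.4% of all genes, and those called lower 1.45% and 5.98%. The summed level of these 12 loci was 40.6 and 42.7 CPM at 0 µM and 113 ± 35.3 CPM in treated cells. newGene_4242, matched to a pol protein, was the most abundant of these with a mean of 4.28 FPKM. It stood at 14.2 and 12.7 CPM at 0 µM and at 29.7, 48.2 and 81.6 CPM in treated cells, with no overlap (1.97 ± 0.32, adjusted p = 0.000885). The highest value came from 150 µM on day 5 and the lowest from 150 µM on day 10. In the untreated libraries it was 14.7 and 3.19 CPM, and the rise against these was 2.54.

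newGene_3040, a putative gag-pol protein with a reverse transcriptase domain, was the locus that fell. It stood at 20.4 and 23.5 CPM at 0 µM and at 0.519, 1.75 and 4.07 CPM in treated cells, which did not overlap (-3.60 ± 0.44, adjusted p = 0.000182). In the untreated libraries it stood at 3.15 and 1.58 CPM, within the range of the treated libraries. Against these libraries the log2 fold change was -0.34 with an adjusted p of 0.727. Both 0 µM libraries thus lay above the other 8 libraries.

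newGene_7946, an IAP-matched reverse transcriptase locus with a mean of 4.04 FPKM, was the most abundant of the loci with large rises. It stood at 1.76 and 2.74 CPM at 0 µM and at 16.9, 34.5 and 53.8 CPM in treated cells. Every treated library exceeded the 0 µM libraries (3.91 ± 0.40, adjusted p = 6.42e-05), and without the 0 µM library of day 5 or of day 10 the log2 fold change was 3.13 or 4.73. The untreated libraries stood at 6.90 and 3.89 CPM, between the other groups, and the rise against them was 2.70.

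newGene_4750, an integrase locus matched to endogenous retrovirus group K member 11 and to IAP, had 1 count at 0 µM on day 5 and none on day 10, against 1055 counts in the 6 treated libraries. Its treated levels were 2.45, 3.96 and 5.54 CPM (lowest, median and highest). The pooled ratio was 336 with a 95% interval of 60.2 to 13299 that covers counting error only. Its fitted log2 fold change of 8.04 (adjusted p = 2.79e-05) rests on that single count, and it became 10.27 without the 0 µM library of day 5 and 7.48 without that of day 10. The untreated libraries, at 0.232 and 0.757 CPM, lay above 0 µM and below every treated library.

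newGene_7097, a partial pol with an integrase core domain, stood at 0.667 and 1.19 CPM at 0 µM and at 7.17, 11.7 and 24.4 CPM in treated cells. It rose by 3.81 ± 0.27 (adjusted p = 8.1e-06), and the untreated libraries, at 0.398 and 0.560 CPM, lay below 0 µM. newGene_6850, with the integrase domain of murine leukemia virus, rose by 3.87 ± 0.81 (adjusted p = 0.00373) from 0.0404 and 0.194 CPM to 0.458, 1.59 and 2.62 CPM, and the estimate was 2.89 or 5.27 without the 0 µM library of day 5 or day 10. Neither locus overlapped between treated cells and 0 µM. The untreated libraries stood at 0.497 and 0.132 CPM for newGene_6850, A-5 lying above the lowest treated library. With A-5 alone in place of 0 µM its log2 fold change was 1.64 with an adjusted p of 0.174, the highest over its alternatives, which began at 1.84e-06.

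newGene_11267, an IAP-matched reverse transcriptase locus, stood at 0.364 and 0.194 CPM at 0 µM and at 1.98, 2.42 and 4.08 CPM in treated cells (3.27 ± 0.36, adjusted p = 9.77e-05). newGene_11282, matched to endogenous retrovirus group K member 8, stood at 0.364 and 0.194 CPM at 0 µM as well and at 1.21, 2.21 and 4.0 CPM in treated cells (3.07 ± 0.41, adjusted p = 0.000307). Both were separate from 0 µM in all 6 treated libraries and from both untreated libraries.

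Among the other abundant loci, newGene_8783, matched to endogenous retrovirus group K member 8, stood at 4.53 and 3.91 CPM at 0 µM and at 12.1, 22.6 and 29.5 CPM in treated cells. It rose by 2.28 ± 0.27 (adjusted p = 0.000147), but untreated B-4 stood at 24.7 CPM, within the treated range, and A-5 at 5.97 CPM. newGene_3062, an integrase locus of group K, stood at 3.11 and 3.49 CPM at 0 µM and at 4.16, 4.90 and 7.08 CPM in treated cells. Its change of 0.67 ± 0.21 (adjusted p = 0.0290) was under the fold limit, although the groups did not overlap. newGene_7595, a partial pol, stood at 25.8 and 19 CPM at 0 µM and at 16.1, 21.5 and 23.5 CPM in treated cells, with overlap and a log2 fold change of -0.07 ± 0.15 (adjusted p = 0.734).

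**Figure D4:**
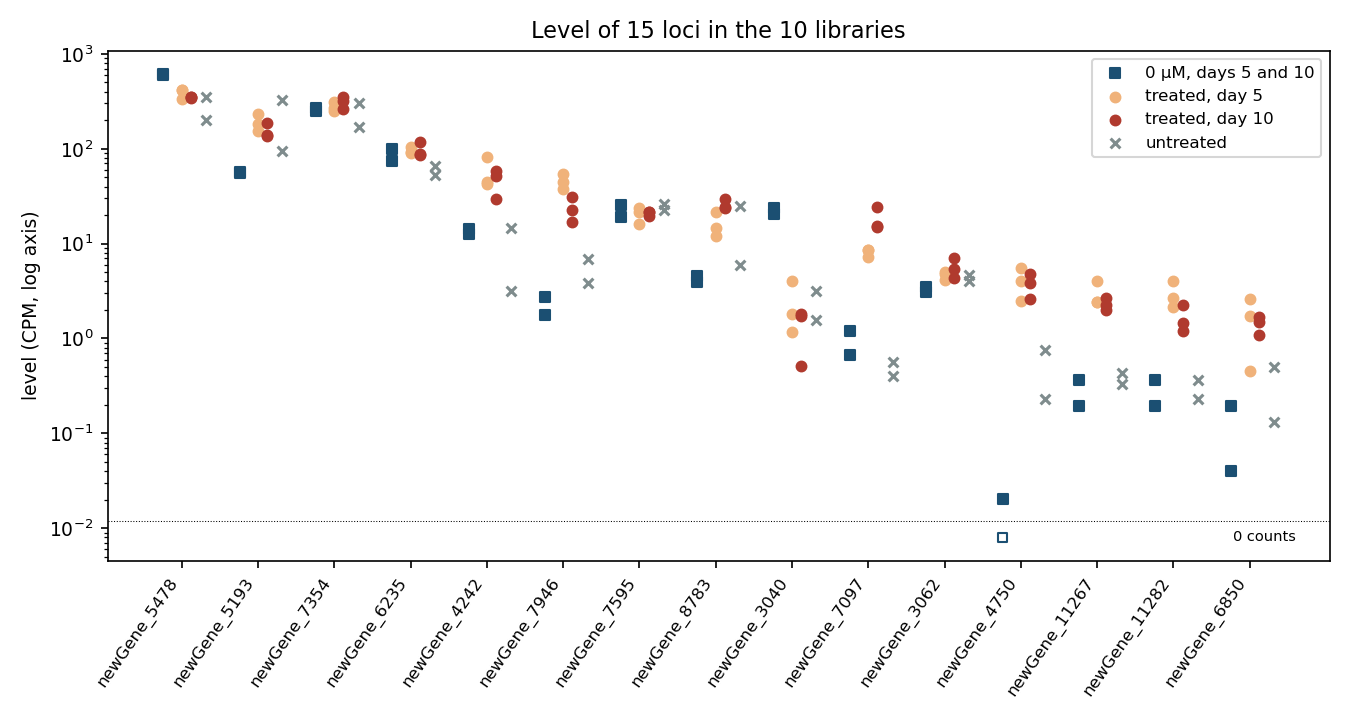
Level in CPM (log axis) of 15 loci in each of the 10 libraries, ordered by mean FPKM, with squares for 0 µM, circles for treated cells by day and crosses for the untreated libraries. The squares lie under all circles in the 9 loci called higher and in newGene_3062, above them for newGene_5478 and newGene_3040 and among them for newGene_7354, newGene_6235 and newGene_7595, and an open square marks a library with 0 counts.

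Some loci had too few counts at 0 µM for a ratio. Of the 46 loci called higher, 38 had more than 3 counts in the 0 µM libraries together, 6 had 1 to 3 counts and 2 had none. newGene_7018, a reverse transcriptase locus with 111 counts in treated cells, was at least 11.8-fold higher than a level of 3 counts over both 0 µM libraries, and newGene_3774 with 44 counts was at least 4.68-fold higher. The locus with no protein match, newGene_5329, had 3 counts in all, from 150 µM on day 10. The locus named for the IAP IgE-binding protein, newGene_8281, had 2 counts, from 200 µM on day 5. The 39 loci that were not tested had 2 to 58 counts over the 8 libraries, and 18 of the 108 had no count at 0 µM while 2 had none in treated cells.

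The loci were also grouped by shared best protein match. Of all 69 tested loci 66.7% were called higher, as were 13.4% of all genes, and no group was tested against these shares. All 4 loci matched to the uncharacterized protein LOC108490752 of a mole rat rose, by 2.59 to 5.09, and newGene_7946 and newGene_11267 were among these. Of 9 loci matched to the protein LOC72520, all but 1 with a Gag domain, 7 were tested and 6 rose, with a median of 2.59. Of 12 loci matched to LOC110316124 of Mus pahari, 8 were tested and 7 rose, with a median of 2.97. Other shared matches held fewer rises. Of 3 loci matched to endogenous retrovirus group K member 113, 2 were tested and neither was called (0.98 and 1.28). Of 4 loci matched to a partial pol, 3 were tested and 1 rose, with a median of -0.07. Of 3 loci matched to a putative gag-pol protein, all tested, 1 rose and 1 fell. None of the 9 loci matched to LOC116095272 had enough counts for a test. Loci with a shared match may share reads, so their values are not independent.

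Compared to the untreated libraries in place of 0 µM, fewer loci passed. Of the 46 loci called higher against 0 µM, 43 could be tested against the untreated libraries and 22 were called higher there too. Both comparisons use the same 6 treated libraries, so the second is not an independent check of the first. Among all genes tested against the untreated libraries 6.73% were called higher. Of the 12 loci matched to IAP, 10 were tested against the untreated libraries and 7 were higher, and of the 17 Gag loci, 11 were tested and 2 were higher. The untreated libraries differed from each other, with A-5 above B-4 in 67 of the 108 loci. The culture time of the untreated libraries is not given in the sources used here.

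Between day 10 and day 5 of treatment few loci differed. The comparison within the treated libraries tested 71 loci, of which 1 was higher on day 10 and none lower, where 1.09% of 16664 genes were called higher and 0.18% lower. The locus was newGene_7097, which stood at 7.17, 8.65 and 8.46 CPM at 100, 150 and 200 µM on day 5 and at 14.8, 24.4 and 15.3 CPM on day 10. All 3 libraries of day 10 exceeded those of day 5 (1.14 ± 0.16, adjusted p = 0.0154), although its change was 0.94 without the 150 µM library of either day. In the same fits newGene_6168 was called higher in its place (1.70, adjusted p = 0.00411 without that of day 5 and 0.00634 without that of day 10). Without the 100 µM library of either day newGene_7355 was also called higher, by 5.23 or 5.22, and newGene_2819 and newGene_7946 were called lower. Dose was a factor in this comparison, so a dose with only 1 library left adds nothing to the change between days. Leaving out a dose's library of day 5 or of day 10 thus rests on the same other doses, and the paired values are not separate checks. Under the fold limit but with an adjusted p below 0.05 were newGene_8783, higher on day 10 (0.71), and newGene_7946 and newGene_2819, lower on day 10 (-0.99 and -0.95). newGene_7946 stood at 45.1, 53.8 and 37.9 CPM on day 5 and at 31.1, 16.9 and 22.6 CPM on day 10. The median change of the 71 loci was -0.15.

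No locus was called for a trend with dose. Of 71 loci tested with edgeR, 4 (5.63%) had an unadjusted p below 0.05, as did 2.35% of all genes, and 0.006% of all genes were called. DESeq2 called 0 loci, with 3 below an unadjusted p of 0.05. The highest level of the 104 less abundant loci came at 150 µM on day 5, 391 CPM against 259 CPM at 100 µM and 275 CPM at 200 µM. On day 10 the order was 284, 267 and 268 CPM at 100, 150 and 200 µM, so that the dose of the highest level differed between days. With 1 library at each dose and day, a difference between single doses has no replicate check.

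Whether the change with treatment differed between days was tested for 79 loci, and none passed. With edgeR 5 (6.33%) had an unadjusted p below 0.05, as did 8.23% of all 17799 genes, and 0.0112% of all genes were called. DESeq2 called 1 locus. That locus was newGene_3340, a reverse transcriptase locus that stood at 0.243 CPM at 0 µM on day 5 and 1.23 CPM on day 10. In treated cells it stood at 3.24, 3.60 and 3.71 CPM at 100, 150 and 200 µM on day 5 and at 2.37, 2.96 and 3.32 CPM on day 10. The 2 fits gave adjusted p = 0.29 (edgeR) and 0.0408 (DESeq2).

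Host genes that act on retroelements were described beside the loci. Over all genes tested, 13.4% were called higher against 0 µM and 5.98% lower. Of 30 genes of retroelement silencing, 29 were tested, and against 0 µM none was called higher and 5 were lower. These were the genes of DNA methylation maintenance Uhrf1 (-1.99) and Dnmt1 (-1.43), the remodeller Hells (-1.41) and the chromatin assembly subunits Chaf1b (-1.60) and Chaf1a (-1.44), which are also known as genes of DNA replication. Dnmt1 stood at 268 CPM on average at 0 µM and at 97.8 ± 15.9 CPM in treated cells. Against the untreated libraries, however, the log2 fold changes of these 5 genes lay between -0.50 and 0.14. The 1 silencing gene called lower against the untreated libraries was Morc3 (-1.37, adjusted p = 0.00183), which stood at -0.19 against 0 µM. Trim28 (-0.50), Setdb1 (-0.03) and Dnmt3a (-0.07) were not called, and the KRAB zinc finger gene Zfp809, which silences murine leukemia proviruses, stood at 0.76 under the fold limit. The part of these genes in the change of the loci was not tested.

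**Figure D5:**
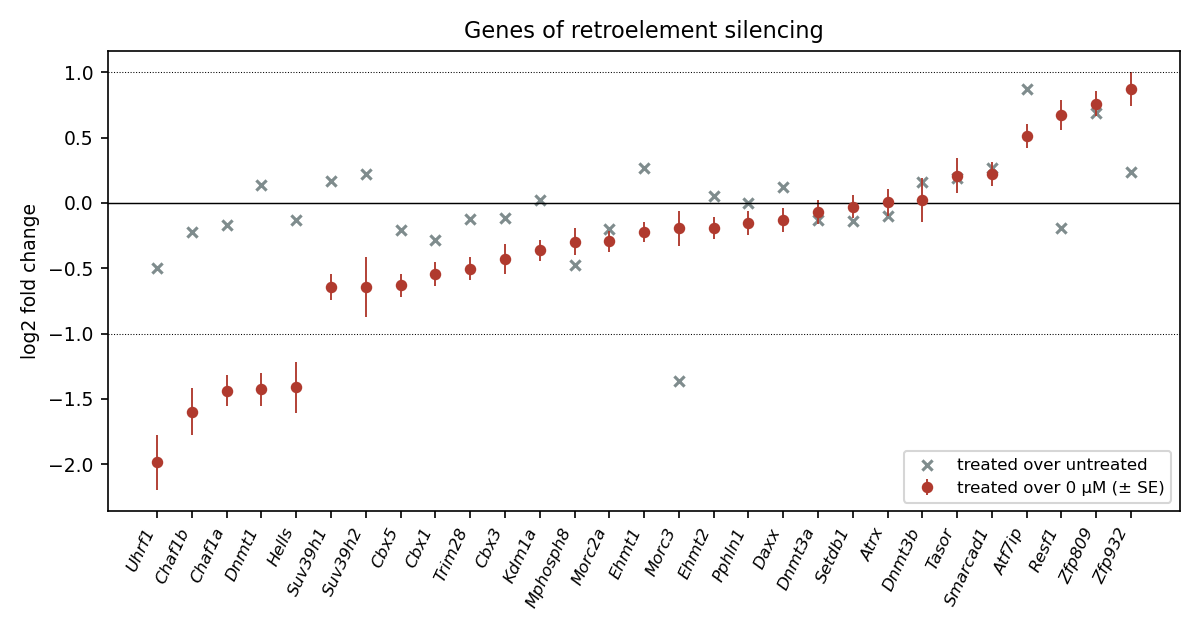
Log2 fold changes of 29 genes of retroelement silencing, treated over 0 µM (circles with SE) and treated over the untreated libraries (crosses), with dotted lines at the fold limits of 1 and -1. Uhrf1, Chaf1b, Chaf1a, Dnmt1 and Hells lie under -1 against 0 µM, and between -0.50 and 0.14 against the untreated libraries, where Morc3 lies at -1.37.

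The shares of all genes called against 0 µM, 13.4% higher and 5.98% lower, also stand beside the lists that follow. No list was tested against these shares. Of 17 genes that restrict or sense retroelements, Samhd1, which depletes nucleotides, was higher (1.27) and Sting1 (-1.40), Rnaseh2c (-1.37) and Rnaseh2b (-1.13) were lower. Against the untreated libraries none of these 4 was called, with log2 fold changes of 0.70 for Samhd1, 0.45 for Sting1, which turned sign, -0.73 for Rnaseh2c and -0.47 for Rnaseh2b (adjusted p from 0.0663 to 0.462). Among 5 retrovirus receptors, the phosphate transporter Slc20a1 was lower (-1.03) and none was higher. Among 22 host genes derived from retroelements, 17 were tested, Asprv1 (1.52) and Zcchc18 (1.26) were higher and Arc was lower (-1.17). Of the 11 Ensembl genes with the same terms as the loci, Setmar, a histone methyltransferase gene, was higher (1.20). The other 10 of these genes were not called, among them the barrier-to-autointegration factor gene Banf1 (-0.72). The median log2 fold change of the 11 Ensembl genes was -0.06, compared to 2.12 for the 69 loci. The 2 medians are at unlike levels. Most of these Ensembl genes lay above 10 CPM, where the 11 loci of that level had a median of 0.43. The 69 loci also include 23 that passed the filter through the treated libraries. Against the untreated libraries Asprv1 was again higher (1.61), whereas Slc20a1 (-0.46), Zcchc18 (0.64), Arc (-1.03) and Setmar (0.41) were not called, and Peg10 was higher (1.32) and the receptor Tfrc lower (-1.22).

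Of 9 osteoblast markers, 5 were higher (Runx2, Sp7, Alpl, Ibsp and Sparc), where 13.4% of all genes were. Alpl, the bone alkaline phosphatase, went from 0.0323 to 42.7 CPM on average. Col1a1 (0.01), Col1a2 (0.09) and Bglap (1.57) were not called, and Spp1 fell under the fold limit (-0.56, adjusted p = 0.0325). Against the untreated libraries Sp7, Alpl, Ibsp and Col1a1 were higher and Spp1 was lower (-1.06). Runx2 (0.53) and Sparc (0.80) were not called there. The 5 macrophage markers summed to 12.1 to 12.8 CPM at 0 µM and to 4.59 to 7.04 CPM in treated cells, with Cd14 called lower. The sums were 0.484 to 0.526 and 1.34 to 1.83 CPM for 3 endothelial markers, 1.84 to 2.02 and 1.73 to 4.12 CPM for 4 adipocyte markers, and 1.74 to 2.12 and 4.36 to 8.85 CPM for 4 muscle markers. The 6 pluripotent and germ cell markers summed to 0.789 to 1.26 CPM at 0 µM and 1.18 to 1.95 CPM in treated cells, with Dppa3 at 0 in both groups. Called higher among these lists were Cdh5 (3.44), Des (1.56), Ckm (3.86) and Ddx4, which had no count at 0 µM and a mean of 0.272 CPM in treated cells. Against the untreated libraries Cdh5 and Des were also higher, and Ckm (-0.46), Ddx4 and Cd14 were not called. Fewer cells of a kind and less RNA per cell cannot be told apart in such bulk libraries, and the part of other cells in the change of the loci was not tested.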

How the data were processed

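Poly(A) RNA of MC3T3-E1 cells was sequenced in 10 libraries. The authors deposited a table of read counts and FPKM per gene or assembled locus with annotation. Per the labels the submitters' processing notes name HISAT2 2.0.4 and GATK 3.2-2, while the assembler, the counter, the genome build and the annotation are not given in the sources used here. FPKM values deposited by the authors are per length and depth. Pairwise fold changes, p-values and calls of the authors are in the same table and were not used. The methods of the study state n = 3 for the RNA extraction, while 1 library per dose and day was deposited for this table.

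Counts were fitted in R 4.3.3 with edgeR 4.0.16 (TMM, filterByExpr, quasi-likelihood test, Benjamini-Hochberg adjustment over all genes tested), 6 treated against 2 libraries at 0 µM with day as a covariate. A change was called past a log2 fold change of 1 and an adjusted p of 0.05. Days, with dose as a factor, and a dose trend, with day as a covariate, were tested within the treated libraries, and the difference between days over all 8, with an adjusted p of 0.05 alone for dose and difference. Levels are CPM with TMM factors over the 10 libraries. Intervals and limits from counts cover counting error only, at 95% and 3 counts over the group. DESeq2 1.42.0 and limma 3.58.1 (log2 of FPKM plus 1 or 0.1, mean FPKM of at least 0.1) served as alternatives. The fits were tested on simulated data.

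Loci were named by rule: the 3 with the highest mean FPKM in each class of best match, the 6 largest rises with a mean of at least 1 CPM in treated cells, and every locus called lower or between days. The members, the gene lists (silencing, restriction and sensing, receptors, derived host genes, cell type markers) and the tests were chosen with earlier results of these data known. Library totals of 27108562 to 58218009 counts set the precision.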

Additional observations from a re-analysis of the deposited data

Results flagged for a closer look

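In groups of 6 treated libraries, a library was set apart where its gap to the nearest other library was a large share of the range, which chance does in about 1 of 20 groups. This held in 4 of 18 groups of values. At 150 µM on day 5 newGene_11267 stood at 4.08 CPM, against 1.98 to 2.69 CPM in the other 5 treated libraries, and newGene_3040 at 4.07 CPM, against 0.519 to 1.81 CPM. newGene_8281 had counts in a single treated library (0.0651 CPM at 200 µM on day 5), as did newGene_5329 (0.0559 CPM at 150 µM on day 10), which rest on 2 and 3 counts. With no count in the other 5 treated libraries, these 2 loci were bound to be set apart. The rate of 1 in 20 does not apply to them, so 4 of 18 cannot be read as an excess.

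The untreated libraries entered no main comparison, and some loci stood there above 2 times the higher 0 µM library. In B-4 newGene_8783 stood at 24.7 CPM against 3.91 and 4.53 CPM at 0 µM, and newGene_5193 at 325 CPM against 55.8 and 56.5 CPM. In A-5 newGene_7946 stood at 6.90 CPM against 1.76 and 2.74 CPM, and newGene_6850 at 0.497 CPM against 0.0404 and 0.194 CPM. newGene_4750 stood at 0.232 CPM in A-5 and 0.757 CPM in B-4, against 0 and 0.0202 CPM at 0 µM.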

How the results depend on the processing

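The count of 46 loci called higher stayed within 1.5 times under 11 of 15 alternatives. It was 19 of 32 loci tested (59.4%) with at least 10 counts in every library, where 8.28% of all genes were called higher. With limma on log2(FPKM + 1) it was 5 of 78 (6.41%), against 3.14% of all genes. With the untreated libraries in place of 0 µM it was 23 of 64 (35.9%), against 6.73%. The other was A-5 alone in place of 0 µM, where the median log2 fold change of the loci was 1.54. That alternative, like B-4 alone, was chosen after seeing the data. With 1 library left out the count ran from 30 (without the 0 µM library of day 5) to 50 (without 100 µM on day 5). Those 50 came from 75 loci tested, where 13.2% of all genes were called higher. The count of 1 locus called lower became 2 of 69 with no fold limit, where 20.8% of all genes were called lower. With the untreated libraries in place of 0 µM it was 0 of 64, where 2.87% of all genes were called lower. The locus that fell, newGene_3040, had a log2 fold change of -0.73 with A-5 alone and 0.23 with B-4 alone. Without 1 library the loci higher on day 10 numbered 1 to 2 (newGene_6168 in place of newGene_7097 without the 150 µM library of either day) and those lower 0 to 2, and the latter were 2 with library totals. With at least 1 count, 1 locus fell with dose (newGene_7355) and 1 differed between days (newGene_3340), and DESeq2 also gave 1 for the latter (newGene_3340). The log2 ratio of the summed level was 0.10 and became 0.68 without newGene_5478, the locus with the most counts.

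Changes of sign came mostly with the untreated libraries. newGene_5478 went to 0.43 with both, 0.11 with A-5 and 0.88 with B-4, newGene_5193 to -0.28 with both and -0.91 with B-4, newGene_8783 to -0.23 with B-4, newGene_3040 to 0.23 with B-4 and newGene_7354 to -0.0070 with A-5. newGene_7595, at -0.07, ran from -0.31 to 0.18 with 1 library left out, the latter without the 0 µM library of day 5, and was 0.01 without 100 µM on day 5. The causes were not tested. Loci under 0.1 CPM lie at the limit that 3 counts set.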

Other observations

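newGene_7355, which was called for dose when every gene with at least 1 count was tested but not with the usual filter on low counts, had levels that varied widely between single libraries. At 0 µM it stood at 2.83 CPM on day 5 and had no count on day 10. At 100, 150 and 200 µM it stood at 12.1, 0.370 and 0 CPM on day 5 and at 6.19, 11.6 and 1.96 CPM on day 10. Untreated A-5 stood at 6.83 CPM and B-4 had no count. The trend with dose had an unadjusted p of 0.00965 and an adjusted p of 0.997 with edgeR.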
